A study of Mus musculus with 12 samples.

Results

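This report follows 10 genes in bulk RNA-seq of mouse myeloid-derived suppressor cells (MDSCs): Gpnmb and 9 others that lipid-associated macrophages are known to express, namely Trem2, Lpl, Spp1, Cd9, Fabp5, Apoe, Lgals3, Plin2 and Abca1. They were taken by gene symbol from a count table of 35303 symbols, and all 10 were among the 17676 symbols tested, those whose counts in the 12 libraries sum to 2 or more. Gpnmb was chosen by its higher counts in cells carrying rapamycin particles, so its values are given as a description and no test of them is given. The other 9 stand beside it as genes of the same macrophage state.

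The study asked how decorating MDSCs with drug-loaded particles changes the transcriptome of the cells. Marrow of female C57BL/6 mice aged 6 to 10 weeks, of wild-type genotype, was grown for 3 days with interleukin-6 (IL-6) and granulocyte-macrophage colony-stimulating factor (GM-CSF), each at 40 ng/ml, and CD11b+ Gr1+ cells were purified, a mixture of polymorphonuclear and monocytic MDSCs. There were 4 biological replicates in each of 3 groups, and all 12 cultures were kept for 24 h with IL-6 at 40 ng/ml before RNA was taken. MDSC is the unmodified control. MDSC-NP-Blk carried blank nanoparticles (NPs) of the biodegradable polymer PLGA, joined to azido groups on the cell surface by click chemistry, and CITED carried the same kind of NP loaded with rapamycin, an inhibitor of the kinase mTORC1. Whether the control cells were fed the azido sugar or went through a mock conjugation is not given in the sources used here, so azido labelling, handling and the NP itself cannot be told apart in a comparison with MDSC. All comparisons share libraries: both with MDSC use the same 4 control libraries.

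Lipid-associated macrophages are cells that take up and store lipid in fat tissue, in plaques of arteries and in demyelinated brain, where a like program is seen in activated microglia. The receptor TREM2 senses lipids and lipoproteins and passes its signal through the adaptor encoded by Tyrobp, and the program includes lipid uptake, lipid droplets, lysosomal digestion and cholesterol export. Gpnmb encodes a glycoprotein of the cell surface and of endosomes and lysosomes, and it is known as a gene switched on by the transcription factors MITF and TFE3 under lysosomal stress.

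Library totals ran from 20604809 to 37855478 counts, so that 3 counts, used here as the floor for detection, made up 7.92e-06% to 1.46e-05% of a library; this covers counting error only. Of markers of the cell types that such a culture could hold, those of neutrophils summed to 37704 to 54576 CPM (counts scaled to a common library size) in a library and those of monocytes to 8681 to 13697. The labels give the tissue as the central nervous system, but 7 of 9 markers of neural cells in MDSC, and 6 of 9 in the other groups, were at or under the floor. Of 7 microglia markers, 1 in MDSC (Sall1) and 2 in the other groups (Sall1 and Siglech) were at or under it. The other microglia markers were above it, and the 7 summed to 196 to 256 CPM in a library. The markers of macrophages summed to 1657 to 1716 CPM in CITED, 1340 to 1462 for MDSC-NP-Blk and 1084 to 1151 in MDSC. Vsig4 and Timd4, which mark resident macrophages, were at or under the floor in all groups, and the other macrophage markers were above it. The label of the gene group names the known setting of the genes. Whether macrophages were among the cells sequenced was not tested. Within a library, expression relative to the mean of a gene over all libraries was also related to transcript length, with a Spearman rho of 0.21 to 0.33 over 11272 genes in MDSC, -0.32 to -0.17 in CITED, and -0.40, -0.05, 0.09 and -0.24 in MDSC-NP-Blk replicates 1 to 4; it is set beside the genes that moved with it.

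The sequence just before the start of a gene holds many of the short motifs to which the factors of this program bind, and 250 bases before the start of the canonical transcript of each of the 10 genes were read from the GRCm39 genome. 3 of them are shown: that of Gpnmb, because the report turns on it, and those of Plin2 and Abca1, which between them hold 3 of the 5 matches found. Capitals mark a match on either strand to AGGTCA, the hexamer of nuclear receptors such as PPAR and LXR, or to CACGTG, the E-box of the type bound by MITF, TFEB and TFE3. The Gpnmb window is chr6:49013176-49013425 on the plus strand, that of Plin2 is chr4:86588460-86588709 on the minus strand, and that of Abca1 is chr4:53159901-53160150 on the minus strand.
Gpnmb: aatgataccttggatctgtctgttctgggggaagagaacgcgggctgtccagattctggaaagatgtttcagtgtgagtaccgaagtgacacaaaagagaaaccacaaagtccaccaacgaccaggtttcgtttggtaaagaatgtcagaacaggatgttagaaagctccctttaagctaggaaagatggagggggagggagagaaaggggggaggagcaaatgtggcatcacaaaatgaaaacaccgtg
Plin2: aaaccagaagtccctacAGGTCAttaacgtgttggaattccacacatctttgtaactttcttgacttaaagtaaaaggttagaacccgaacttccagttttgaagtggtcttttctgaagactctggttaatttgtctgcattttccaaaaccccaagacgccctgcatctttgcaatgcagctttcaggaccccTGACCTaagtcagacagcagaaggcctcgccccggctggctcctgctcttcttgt
Abca1: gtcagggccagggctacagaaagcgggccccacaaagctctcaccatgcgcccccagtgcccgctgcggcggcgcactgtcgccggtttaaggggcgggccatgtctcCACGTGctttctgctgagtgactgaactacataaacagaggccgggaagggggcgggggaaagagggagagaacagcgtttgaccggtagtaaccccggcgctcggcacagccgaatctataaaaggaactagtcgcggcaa
The Gpnmb window held none of the 6 motifs searched. Those were AGGTCA and CACGTG, the M-box TCATGTG, the AP-1 site TGAGTCA, and repeats of that hexamer with 1 base (AGGTCANAGGTCA) or 4 bases (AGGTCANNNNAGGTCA) between them, all on both strands, where a match to a repeat is also 2 matches to AGGTCA. Plin2 held AGGTCA at bases 233 to 228 before the start and on the other strand at bases 55 to 50. Spp1 held it at bases 141 to 136 and Trem2 on the other strand at bases 68 to 63. AGGTCA was thus in 3 of the 10 windows, and in 13.1% of the 21747 windows of protein-coding genes. Abca1 held CACGTG at bases 142 to 137, and 6.26% of all windows held it. The M-box (2.91% of all windows), the AP-1 site (4.03%), the repeat with 1 base between (0.0368%) and the repeat with 4 bases between (0 of 21747) were in none of the 10 windows. Only the exact letters were searched, and looser forms of a motif were not. Since none of the 21747 windows held the repeat with 4 bases between, its absence from the 10 carries no information. A match describes these letters in this window and no binding.

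Per kilobase of the canonical transcript, which lets genes be compared with each other, the levels of the 10 genes spanned more than 2 orders of magnitude. In MDSC the order of the mean normalized counts per kilobase was Spp1 (30326 ± 1711, SD, n = 4), Lgals3 (20180 ± 276), Cd9 (7484 ± 264), Gpnmb (6038 ± 219), Lpl (5040 ± 98), Fabp5 (2655 ± 75.7), Plin2 (1991 ± 104), Trem2 (1223 ± 17.5), Apoe (395 ± 24.6) and Abca1 (96.3 ± 18.9). The libraries of neighbours in that order did not overlap. In MDSC-NP-Blk, Lgals3 (29641 ± 2291 per kilobase) stood above Spp1 (19034 ± 903), and Plin2 (3078 ± 126) and Lpl (2936 ± 318) did not differ beyond their spread. In CITED, Lgals3 was at 41412 ± 2432 per kilobase, Spp1 at 17350 ± 1129, Cd9 at 15288 ± 373 and Gpnmb at 12267 ± 192, and Lpl (2334 ± 57.2) and Trem2 (2107 ± 106) lay next to each other, with the lowest Lpl library at 2255 and the highest Trem2 library at 2245. With the longest annotated transcript in place of the canonical one, Trem2 in MDSC would be 278 per kilobase, beside Apoe at 279, and Fabp5 would be 814, so the places of these genes depend on the transcript chosen.

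**Figure D1:**
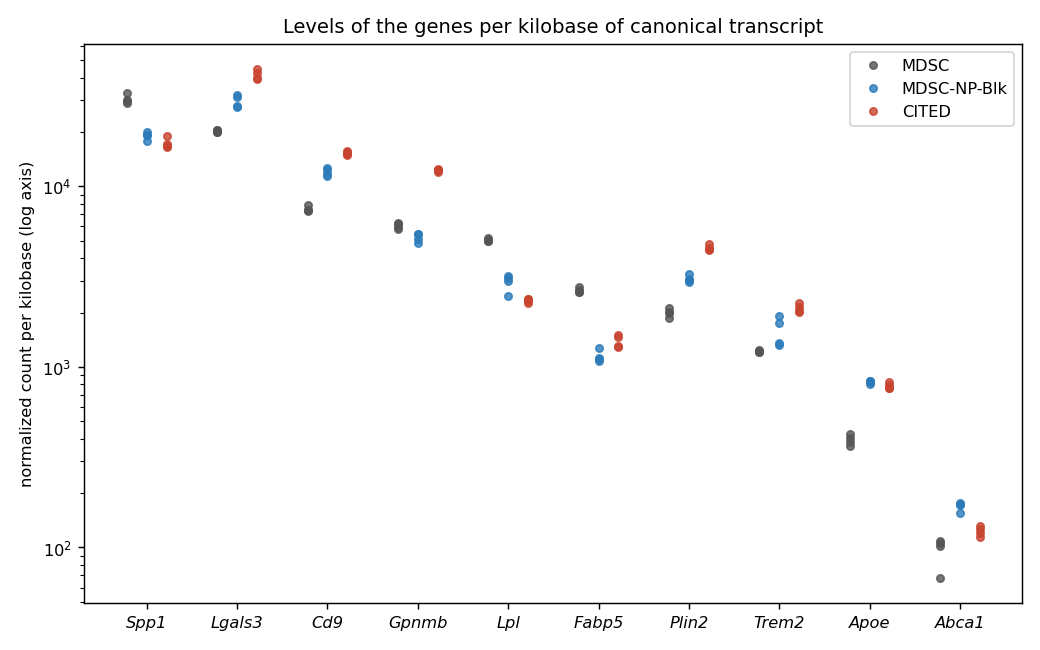
Levels of the 10 genes as normalized counts per kilobase of canonical transcript (log axis), 1 point for each of the 4 libraries of MDSC (grey), MDSC-NP-Blk (blue) and CITED (red). Spp1 and Lgals3 stand highest in all groups and Abca1 lowest, and the CITED points of Gpnmb lie at about 12267 per kilobase against 6038 in MDSC.

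Gpnmb, on chromosome 6 from 49013426 to 49047863 on the plus strand of GRCm39, had normalized counts (counts scaled to a common library size) of 22803, 22052, 23938 and 23563 in MDSC replicates 1 to 4. They were 19629, 20799, 20690 and 18646 in MDSC-NP-Blk, and 47187, 47122, 47491 and 45835 in CITED. The CITED libraries lay far above all others, and every MDSC-NP-Blk library lay below every MDSC library. The means were 23089 ± 837 (SD, n = 4) for MDSC, 19941 ± 1012 for MDSC-NP-Blk and 46909 ± 734 for CITED, which is 2.03 times MDSC and 2.35 times MDSC-NP-Blk. On the log2 scale CITED was above MDSC by 1.02 and above MDSC-NP-Blk by 1.23, and MDSC-NP-Blk against MDSC was at -0.21. Scaling by library totals alone would give 0.75 for CITED against MDSC and -0.47 for MDSC-NP-Blk against MDSC, which leaves both directions as they are.

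**Figure D2:**
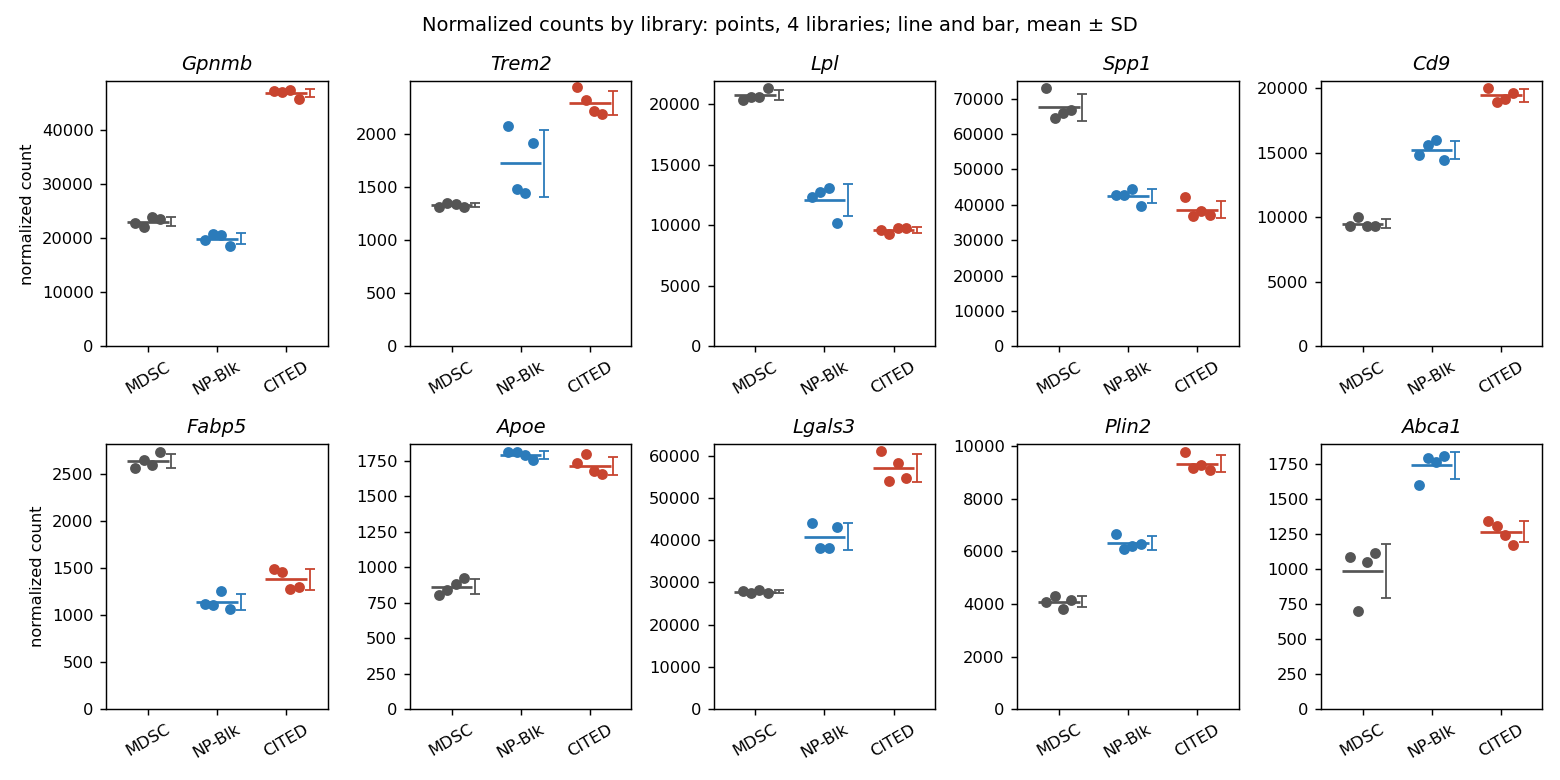
Normalized counts of the 10 genes in each library, with the mean and SD of the 4 libraries of each group; each panel has its own linear axis from 0. In Gpnmb the CITED libraries stand alone, Trem2, Cd9, Lgals3 and Plin2 climb from MDSC over MDSC-NP-Blk to CITED, Lpl and Spp1 descend, and Abca1 is highest in MDSC-NP-Blk.

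Of the 9 genes beside Gpnmb, 6 rose and 3 fell in CITED against MDSC, and the same numbers, 6 and 3, held for MDSC-NP-Blk against MDSC. Rose and fell mean here an adjusted p below 0.05 over all 17676 genes tested with edgeR's quasi-likelihood test. Of all genes tested, 22.2% rose and 22.2% fell in CITED against MDSC, and 19.9% rose and 18.6% fell in MDSC-NP-Blk against MDSC. These shares, and those of all genes below, include symbols of very low counts and are not matched to the 9 genes. The libraries of the groups did not overlap for any of the 9 genes in either comparison, with 6 higher and 3 lower in each. Among all genes, 21.2% lay wholly higher and 21.2% wholly lower in CITED than in MDSC, and 18.1% and 17.4% in MDSC-NP-Blk than in MDSC.

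In CITED against MDSC-NP-Blk, which differ in the rapamycin load, 5 of the 9 genes rose, 3 fell and 1, Apoe, did not pass the test. Of all genes, 10.5% rose and 11.4% fell there. The libraries did not overlap for 7 of the 9, with 5 higher and 2 lower, against 10.4% and 10.8% of all genes. The median log2 fold change of the 9 genes was 0.78 in CITED against MDSC, 0.55 in MDSC-NP-Blk against MDSC and 0.28 in CITED against MDSC-NP-Blk, where the medians of all genes were -0.05, -0.03 and 0.

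Fewer of the 9 genes were called, which needs in addition a log2 fold change of 1 or more in either direction. In CITED against MDSC, Cd9, Lgals3 and Plin2 were called higher and Lpl lower, where 3.28% of all genes were called higher and 6.7% lower. In MDSC-NP-Blk against MDSC, Apoe was called higher and Fabp5 lower, against 1.88% and 2.86% of all genes. In CITED against MDSC-NP-Blk none of the 9 was called by edgeR or by DESeq2, although 8 had an unadjusted p below 0.05 in edgeR; of all genes, 0.651% were called higher and 2% lower. The calls near the threshold depend on the scaling: with library totals alone, which shifts the median of all genes by -0.27 in CITED against MDSC and -0.26 in MDSC-NP-Blk against MDSC, the genes called were 0 higher and 3 lower in place of 3 and 1, and 0 and 2 in place of 1 and 1. That scaling also moved the share of higher genes among all calls from 32.9% to 12.6% and from 39.7% to 12.1%.

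**Figure D3:**
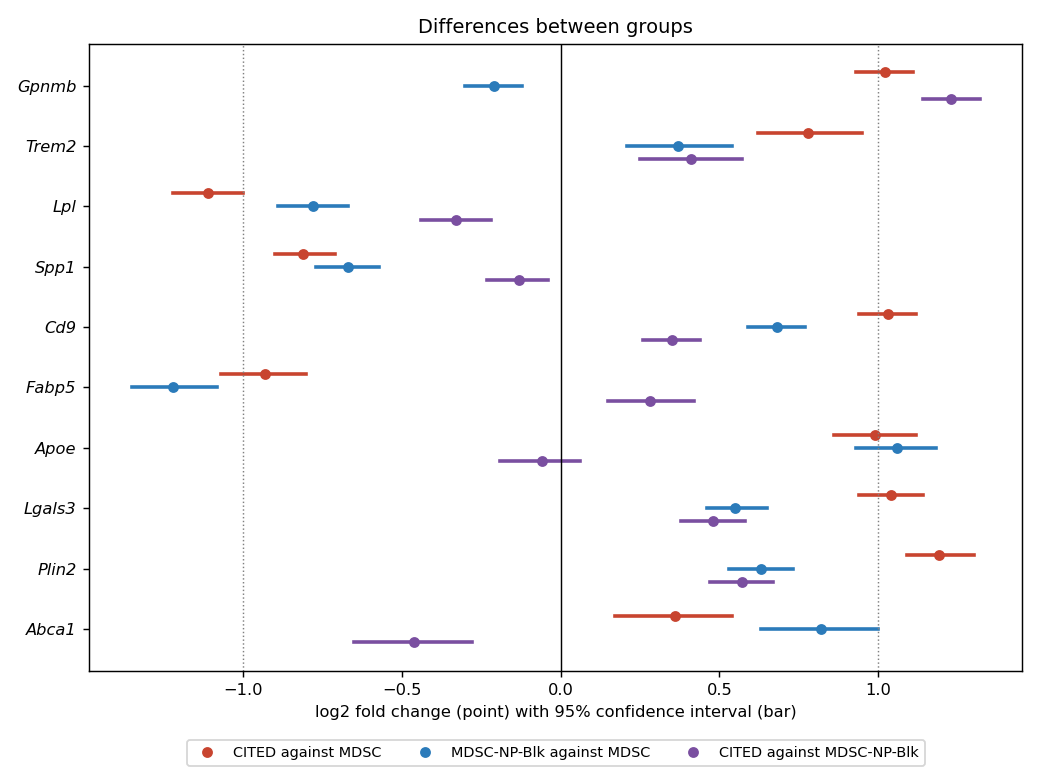
Log2 fold changes of the 10 genes with 95% confidence intervals in the 3 comparisons; dotted lines mark a log2 fold change of 1 in either direction. Lpl, Spp1 and Fabp5 lie to the left of 0 in both comparisons with MDSC, the other members beside Gpnmb lie to the right, and Gpnmb, chosen by this difference, is shown as a description.

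Of the receptors and surface proteins, Trem2 encodes the lipid-sensing receptor itself. It lies on chromosome 17 from 48653429 to 48661175 on the plus strand. Its normalized counts were 1312, 1353, 1339 and 1318 in MDSC, 2073, 1481, 1441 and 1916 in MDSC-NP-Blk, and 2443, 2322, 2219 and 2186 in CITED. MDSC libraries were the lowest and nearly alike, CITED libraries the highest, and MDSC-NP-Blk split into a higher pair, replicates 1 and 4, and a lower pair, replicates 2 and 3. The same replicates 1 and 4 had the more negative length relation, -0.40 and -0.24 against -0.05 and 0.09. Trem2 rose by a log2 fold change of 0.78 in CITED against MDSC (standard error 0.08, adjusted p = 2.8e-10), by 0.37 in MDSC-NP-Blk against MDSC (0.0802, adjusted p = 0.00026) and by 0.41 in CITED against MDSC-NP-Blk (0.0795, adjusted p = 0.00014). In MDSC-NP-Blk against MDSC it did not pass after a correction of each library for transcript length (0.15, adjusted p = 0.06) or with library totals alone (0.11, adjusted p = 0.29).

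Cd9 encodes a tetraspanin, a membrane organizer used to sort lipid-associated macrophages, and lies on chromosome 6 from 125437210 to 125471778 on the minus strand. It had 9325, 10016, 9352 and 9356 normalized counts in MDSC, 14819, 15620, 15976 and 14471 in MDSC-NP-Blk, and 20003, 18947, 19153 and 19623 in CITED. The 3 groups were cleanly stepped, with narrow spread inside each. Cd9 rose to 2.04 times MDSC in CITED (log2 fold change 1.03, standard error 0.0456, adjusted p = 1.6e-19), to 1.6 times in MDSC-NP-Blk (0.68, adjusted p = 2.2e-14), and by 0.35 from MDSC-NP-Blk to CITED (adjusted p = 1.7e-07). The value of 1.03 fell to 0.83 with the length correction and to 0.76 with library totals alone, below the fold threshold. Of the 31-base words of its transcript, 6.04% also occur in the pseudogene Cd9-ps, so a small part of its counts could have been assigned either way.

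Lgals3 encodes galectin-3, a galactoside-binding lectin released by phagocytes, and lies on chromosome 14 from 47605208 to 47623624 on the plus strand. Its normalized counts were 28094, 27486, 28137 and 27434 in MDSC, 44007, 38048, 38163 and 43043 in MDSC-NP-Blk, and 61162, 53936, 58291 and 54707 in CITED. The groups did not overlap, and the MDSC-NP-Blk libraries fell into the same pairs as for Trem2. The log2 fold change was 1.04 in CITED against MDSC (standard error 0.0487, adjusted p = 7.4e-19), 0.55 in MDSC-NP-Blk against MDSC (0.0483, adjusted p = 1.4e-11) and 0.48 in CITED against MDSC-NP-Blk (0.0483, adjusted p = 9.9e-10). The call in CITED against MDSC was narrow: without CITED replicate 1 the value was just under the fold threshold, at 1.00 when rounded, and with the length correction it was 0.83.

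Lpl and Spp1 fell against MDSC in both groups with NPs. Lpl encodes lipoprotein lipase, which frees fatty acids from triglyceride-rich lipoproteins, and lies on chromosome 8 from 69284603 to 69360100 on the plus strand. It had 20380, 20617, 20638 and 21317 normalized counts in MDSC, 12363, 12744, 13054 and 10166 in MDSC-NP-Blk, and 9592, 9279, 9797 and 9755 in CITED. All MDSC libraries were higher than the rest, and the lowest MDSC-NP-Blk library, replicate 4, was still above every CITED library. Lpl fell in CITED to 0.463 times MDSC (log2 fold change -1.11, standard error 0.0551, adjusted p = 3.2e-18), in MDSC-NP-Blk to 0.583 times MDSC (-0.78, adjusted p = 7.1e-14), and in CITED against MDSC-NP-Blk by 0.33 on the log2 scale (adjusted p = 1.5e-05).

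Spp1 encodes osteopontin, a secreted matrix protein and cytokine that binds CD44 and integrins, and lies on chromosome 5 from 104582165 to 104589235 on the plus strand. Its normalized counts were 73133, 64497, 65944 and 66811 in MDSC, 42681, 42706, 44596 and 39725 in MDSC-NP-Blk, and 42340, 36843, 38252 and 37254 in CITED. It was the most abundant of the 10 in every MDSC library, and both groups with NPs overlapped each other but not MDSC. Spp1 fell with a log2 fold change of -0.81 in CITED against MDSC (standard error 0.0479, adjusted p = 4.2e-16) and -0.67 in MDSC-NP-Blk against MDSC (0.0478, adjusted p = 1e-13). Between CITED and MDSC-NP-Blk the value was -0.13 (0.0477, adjusted p = 0.04), which passed on the adjusted p alone and was under the fold change of a call. The adjusted p did not pass in 9 of 21 other settings, with values there of 0.05 to 0.15, which include leaving out MDSC replicate 4, MDSC-NP-Blk replicate 2 or 3, or CITED replicate 2, 3 or 4 (log2 fold changes of -0.13 to -0.11).

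Apoe encodes apolipoprotein E, the lipoprotein component that macrophages secrete to carry cholesterol away, and lies on chromosome 7 from 19430034 to 19434947 on the minus strand. It had 801, 841, 883 and 925 normalized counts in MDSC, 1812, 1812, 1789 and 1755 in MDSC-NP-Blk, and 1731, 1798, 1675 and 1658 in CITED. Both groups with NPs lay far above the MDSC libraries and overlapped each other. Apoe rose to 2.08 times MDSC in MDSC-NP-Blk (log2 fold change 1.06, standard error 0.0626, adjusted p = 1.1e-15) and to 1.99 times MDSC in CITED (0.99, 0.0627, adjusted p = 2.1e-15). CITED against MDSC-NP-Blk did not pass the test, at -0.06 (95% confidence interval -0.19 to 0.06, adjusted p = 0.53). The value of 0.99 was at the edge of a call, and without CITED replicate 3 or 4, or MDSC replicate 3 or 4, Apoe was called at 1.00 to 1.03, while the length correction took the value in MDSC-NP-Blk against MDSC to 0.97 and library totals alone to 0.79.

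Abca1 encodes the transporter that hands cholesterol and phospholipid to lipid-poor apolipoproteins, and it is a known target of the oxysterol receptors LXR. It lies on chromosome 4 from 53030787 to 53159900 on the minus strand, where its upstream window, shown above, holds the only CACGTG of the 10. Its normalized counts were 1087, 700, 1052 and 1115 in MDSC, 1599, 1796, 1766 and 1808 in MDSC-NP-Blk, and 1347, 1306, 1241 and 1174 in CITED. MDSC-NP-Blk was highest in every library, CITED lay between, and MDSC replicate 2 lay well below the other controls. Abca1 rose by a log2 fold change of 0.82 in MDSC-NP-Blk against MDSC (with a standard error of 0.0908, adjusted p = 3.3e-09) and by 0.36 in CITED against MDSC (0.0917, adjusted p = 0.0015), and it fell by 0.46 in CITED against MDSC-NP-Blk (0.0905, adjusted p = 0.00017). Without MDSC replicate 2 the first value was 0.68 and the second 0.22 (adjusted p = 0.0098), and with library totals alone the second was 0.08 and did not pass (adjusted p = 0.51). With the length correction the first value was higher, at 1.12, and was called. Over the settings that did not leave out a library, the second value ran from 0.08 to 0.76.

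Of the proteins that handle lipid inside the cell, Plin2 coats lipid droplets, and its gene lies on chromosome 4 from 86565912 to 86588459 on the minus strand. It had 4065, 4321, 3807 and 4137 normalized counts in MDSC, 6675, 6071, 6222 and 6273 in MDSC-NP-Blk, and 9793, 9176, 9296 and 9089 in CITED. The groups were cleanly stepped without overlap. Plin2 had the highest log2 fold change of the 9 genes in CITED against MDSC, 1.19 (standard error 0.0498, adjusted p = 3.5e-20), with 0.63 in MDSC-NP-Blk against MDSC (0.0496, adjusted p = 1.3e-12) and 0.57 in CITED against MDSC-NP-Blk (0.0492, adjusted p = 4.4e-11). Of its 31-base words, 14.8% also occur in the gene model Gm12551.

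Fabp5 encodes a fatty acid-binding protein of the cytosol and lies on chromosome 3 from 10077602 to 10081674 on the plus strand. Its normalized counts were 2565, 2650, 2595 and 2736 in MDSC, 1115, 1103, 1256 and 1064 in MDSC-NP-Blk, and 1490, 1462, 1274 and 1293 in CITED. Every library with NPs was well below every MDSC library, and the CITED libraries lay narrowly above those of MDSC-NP-Blk. Fabp5 fell in MDSC-NP-Blk to 0.43 times MDSC (log2 fold change -1.22, standard error 0.065, adjusted p = 8.9e-17) and in CITED to 0.523 times MDSC (-0.93, 0.0645, adjusted p = 2.1e-14), and it rose by 0.28 in CITED against MDSC-NP-Blk (0.0659, adjusted p = 0.0014). Its counts are less certain than those of the others, since 32.9% of its 31-base words also occur in other gene models, among them Gm6166, Gm14328, Gm6100 and Fabp5l2.

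These are bulk libraries of a mixed culture, so a change in the share of a cell type and a change in RNA per cell cannot be told apart. Of the 14 macrophage markers, whose summed CPM was higher in CITED, 3 rose and 8 fell in CITED against MDSC (median log2 fold change -0.98), 2 rose and 8 fell in MDSC-NP-Blk against MDSC (-0.7), and 2 rose and 5 fell in CITED against MDSC-NP-Blk (0). Cd68, a lysosomal protein of macrophages, rose with a log2 fold change of 1.06 in CITED against MDSC, while the complement gene C1qa fell there with -4.05 and the mannose receptor gene Mrc1 with -2.81; these 3 were named after their values were seen. The summed markers of neutrophils were 38887 to 43727 CPM in CITED, 52066 to 54576 for MDSC-NP-Blk and 37704 to 41787 in MDSC, and those of monocytes 8681 to 9560, 12928 to 13697 and 9834 to 10149. Within these sums the single markers moved in both directions. Of the 14 neutrophil markers, 6 rose and 6 fell in CITED against MDSC, with 4 called each way, 10 rose and 3 fell in MDSC-NP-Blk against MDSC, and 3 rose and 8 fell in CITED against MDSC-NP-Blk, where 5 were called lower. The granule enzyme genes Mpo (log2 fold change -4.41) and Elane (-3.27) fell in CITED against MDSC, while Retnlg (1.61) and the G-CSF receptor gene Csf3r (1.54) rose. Of the 10 monocyte markers, 2 rose and 5 fell in CITED against MDSC, 5 rose and 3 fell in MDSC-NP-Blk against MDSC, and 0 rose and 4 fell in CITED against MDSC-NP-Blk. Those that fell in CITED against MDSC include F13a1 (-2.63), which encodes a subunit of coagulation factor XIII, and the chemokine receptor gene Ccr2 (-1.18). Csf1r, which counts in both the macrophage and the monocyte sums, was among the 2 that rose there. It went from 11316 ± 484 normalized counts in MDSC to 22570 ± 260 in CITED (log2 fold change 1.0). These single genes of the neutrophil and monocyte lists too were named after their values were seen. The part of the mixture of cell types in the changes of the 10 genes was not tested.

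Another 32 genes known from lipid-associated macrophages, most of them lysosomal proteases, lipid carriers and surface receptors, are summarized next. For the markers above and all lists below, the shares of all genes tested serve as a scale. In CITED against MDSC 22.2% of all genes rose and 22.2% fell, with 3.28% called higher and 6.7% lower. In MDSC-NP-Blk against MDSC these shares were 19.9%, 18.6%, 1.88% and 2.86%, and in CITED against MDSC-NP-Blk 10.5%, 11.4%, 0.651% and 2%. They include symbols of very low counts and are not matched to the lists. Of the 32 genes, 22 rose and 5 fell in CITED against MDSC, with 7 called higher and 3 lower, and the median log2 fold change was 0.6. The lysosomal sterol carrier Npc2 went from 8363 ± 164 normalized counts in MDSC to 23680 ± 1465 in CITED (log2 fold change 1.5, adjusted p = 1.7e-22). The lysosomal protease cathepsin D, encoded by Ctsd, went from 54867 ± 1335 to 122523 ± 3756 (1.16, adjusted p = 1.2e-22), though 0.88 with library totals alone. Called lower were Cst7, an inhibitor of lysosomal cysteine proteases, from 1423 ± 68.9 to 530 ± 42.2 (-1.42, adjusted p = 7.4e-18), and the growth factor gene Igf1, at low counts, from 50 ± 22.5 to 22.5 ± 0.94 (-1.14, adjusted p = 0.011); the other was Fabp4, described with the PPAR pathway. Without MDSC replicate 4, Igf1 was at -0.79 and did not pass (adjusted p = 0.13), and with the length correction it was at -0.84 (adjusted p = 0.067).

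In MDSC-NP-Blk against MDSC the 32 genes were more evenly divided, with 16 that rose and 11 that fell, 1 called higher and 2 lower, and a median of 0.23. Npc2 was the gene called higher (log2 fold change 1.04, adjusted p = 7.2e-18; 0.77 with library totals alone), and Igf1 (-1.83, adjusted p = 0.00022) and the fatty acid-binding protein gene Fabp4 (-2.3, adjusted p = 0.00068), both at low counts, were called lower. In CITED against MDSC-NP-Blk 23 of the 32 rose and 1 fell, with a median of 0.47. The gene called higher was Atp6v0d2, a subunit of the proton pump of lysosomes, at 3081 ± 134 normalized counts in CITED against 1447 ± 61.4 in MDSC-NP-Blk and 2022 ± 70.4 in MDSC (1.09 against MDSC-NP-Blk, adjusted p = 1.4e-16). Like Gpnmb, it was lower in MDSC-NP-Blk than in MDSC, by -0.48 (adjusted p = 9.2e-09). The gene that fell was Cst7 (-1.11, adjusted p = 5.8e-14).

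Among 14 genes of TREM2 signalling, 7 rose and 2 fell in CITED against MDSC, 7 rose and 3 fell in MDSC-NP-Blk against MDSC, and 1 rose and 3 fell in CITED against MDSC-NP-Blk, with medians of 0.17, 0.13 and 0.05. The only one called was Tyrobp, the adaptor of TREM2 and of many other receptors, in CITED against MDSC. It stood at 8994 ± 483 normalized counts for MDSC, 16893 ± 827 for MDSC-NP-Blk and 21523 ± 1038 for CITED, with log2 fold changes of 1.26 for CITED against MDSC (adjusted p = 7.5e-21, 0.98 with library totals alone) and 0.91 for MDSC-NP-Blk against MDSC. It was also the gene that rose in CITED against MDSC-NP-Blk (0.35, adjusted p = 7.9e-07). The kinase gene Syk, named after its values were seen, rose by 0.43 in CITED against MDSC and did not pass in CITED against MDSC-NP-Blk (0.1, adjusted p = 0.19).

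The factors known to switch on Gpnmb, with its partners and relatives, made a list of 11 genes, none of which was called in any comparison. At an adjusted p below 0.05, 5 rose and 1 fell in CITED against MDSC, 5 rose and 2 fell in MDSC-NP-Blk against MDSC, and 2 rose and 1 fell in CITED against MDSC-NP-Blk; the medians were 0.19, 0.15 and 0.1. Of the factor genes themselves, named after their values were seen, Mitf was at 843 ± 59.6 normalized counts for MDSC, 1098 ± 106 for MDSC-NP-Blk and 1226 ± 42.4 for CITED. Tfe3 was at 1531 ± 71.8, 2549 ± 132 and 2687 ± 132, and Tfeb at 673 ± 37.5, 976 ± 82.3 and 1007 ± 58.5. All 3 rose in both comparisons with MDSC, by log2 fold changes of 0.54, 0.81 and 0.58 in CITED and 0.38, 0.74 and 0.54 in MDSC-NP-Blk, and none passed in CITED against MDSC-NP-Blk, where Gpnmb was 1.23 higher. Tfec did not pass in any of the 3 comparisons, with values of 0.05, -0.1 and 0.15. The 2 that rose in CITED against MDSC-NP-Blk were Flcn (0.46, adjusted p = 5e-06) and Fnip2 (0.55, adjusted p = 1.6e-08), which encode folliculin and a partner of it, regulators of these factors through mTORC1, and the 1 that fell was the syndecan gene Sdc4 (-0.57, adjusted p = 1.5e-05). Neither Fnip2 (0.02) nor Sdc4 (-0.13) passed in CITED against MDSC, and in MDSC-NP-Blk against MDSC they were at -0.53 and 0.44. Flcn was at 0.45 in CITED against MDSC and at -0.01 in MDSC-NP-Blk against MDSC. RNA counts do not measure the activity of the proteins, and the part of these genes in the Gpnmb values was not tested.

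Of 20 other genes of the LXR pathway and cholesterol export, beside Apoe and Abca1, 11 rose and 2 fell in CITED against MDSC, 10 rose and 3 fell in MDSC-NP-Blk against MDSC, and 7 rose and 2 fell in CITED against MDSC-NP-Blk, with medians of 0.25, 0.24 and 0.09. Npc2 belongs here too. Arl4c, a small GTPase gene and known LXR target, had 1690 ± 77.4 normalized counts in MDSC, with 3381 ± 105 for MDSC-NP-Blk and 4322 ± 173 for CITED (log2 fold change 1.36 in CITED against MDSC, adjusted p = 7.8e-21). Its call in MDSC-NP-Blk against MDSC was at the fold threshold, at 1.0, and was lost at 0.97 to 1.00 without CITED replicate 1, 2 or 3, MDSC replicate 1, or MDSC-NP-Blk replicate 1 or 2, and at 0.74 with library totals alone. That call was also lost with DESeq2, another scaling (RLE size factors), a stricter filter, the 8 libraries of the comparison alone, and the length correction (0.97). The desaturase genes, also under LXR and SREBP control, fell: Scd1 from 327 ± 41.6 in MDSC, to 53.4 ± 3.11 with blank NPs and 40.9 ± 13.7 with rapamycin NPs (-2.61 and -2.99), and Scd2 from 22032 ± 981 to 11878 ± 827 and 8233 ± 295 (-0.89 and -1.42). Ch25h, the enzyme gene that makes 25-hydroxycholesterol, was at 137 ± 8.66 for MDSC, 57.4 ± 7.29 for MDSC-NP-Blk and 134 ± 18.5 for CITED. It was called lower in MDSC-NP-Blk against MDSC (-1.25, adjusted p = 3e-07) and higher in CITED against MDSC-NP-Blk (1.22, adjusted p = 1.5e-06), and CITED against MDSC was at -0.03 (adjusted p = 0.91).

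Of 23 tested genes of the PPAR pathway and lipid droplets beside Plin2 and Fabp5, 9 rose and 6 fell in CITED against MDSC, 7 rose and 5 fell in MDSC-NP-Blk against MDSC, and 5 rose and 4 fell in CITED against MDSC-NP-Blk; the medians were 0.07, 0.1 and 0. The lipid droplet gene Hilpda, an inhibitor of lipolysis, was the one called higher in both comparisons with MDSC, at 881 ± 36 for MDSC, 1976 ± 349 for MDSC-NP-Blk and 2309 ± 54.9 for CITED (log2 fold changes 1.16 and 1.39; 0.90 in the former with library totals alone). Fabp4 and the perilipin gene Plin4, at 33 or fewer mean normalized counts, were called too. Fabp4 was lower in both comparisons with MDSC (-2.3 for MDSC-NP-Blk, and -1.36 for CITED with an adjusted p of 0.027), and the latter did not pass without CITED replicate 1 or 3 or MDSC replicate 3 or 4 (-1.29 to -1.14). Plin4 was at 13.6 ± 7.22 for MDSC, 3.66 ± 2.9 for MDSC-NP-Blk and 14.3 ± 3.81 for CITED. Its calls, lower in MDSC-NP-Blk against MDSC (-1.88, adjusted p = 0.03) and higher in CITED against MDSC-NP-Blk (1.95, adjusted p = 0.042), were lost with the replicate number as a block (adjusted p = 0.056 for both). The former was also lost without MDSC replicate 3 or MDSC-NP-Blk replicate 1 or 2 (-1.64 to -1.46), and the latter without any 1 of 8 libraries: CITED replicates 1, 2 and 3, MDSC replicates 1 and 3, and MDSC-NP-Blk replicates 1, 2 and 4 (1.63 to 2.09).

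For lipoprotein lipase partners and lipoprotein uptake, 18 genes were tested, of which 7 rose and 7 fell in CITED against MDSC, 4 rose and 9 fell in MDSC-NP-Blk against MDSC, and 7 rose and 2 fell in CITED against MDSC-NP-Blk, with medians of -0.07, -0.29 and 0.18. Lipg, which encodes endothelial lipase, a relative of Lpl, fell from 22372 ± 534 in MDSC to 10914 ± 303 in CITED (log2 fold change -1.04, adjusted p = 8.9e-20), and was at -0.95 with the length correction. The lipoprotein receptor gene Lrp8 fell from 1384 ± 26.1 to 626 ± 73.1 (-1.14, adjusted p = 4.3e-14; -0.81 with the length correction). Vldlr, another receptor gene of that family, was at 115 ± 22.4 in MDSC-NP-Blk and 29.7 ± 9.22 in CITED (-1.93, adjusted p = 2.2e-08). Lipc, encoding hepatic lipase, was called higher in CITED against MDSC at low counts, 32.7 ± 6.19 against 13.5 ± 7.79 (1.25, adjusted p = 0.023), and did not pass without CITED replicate 1 or MDSC replicate 2, 3 or 4 (1.10 to 1.16).

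Of 9 genes of osteopontin receptors, 4 rose and 2 fell in CITED against MDSC, 4 rose and 1 fell in MDSC-NP-Blk against MDSC, and 1 rose and 3 fell in CITED against MDSC-NP-Blk, with medians of 0.16, 0.09 and 0.07. Itga4, the alpha chain of the integrin VLA-4, was the gene called, at 1564 ± 143 for MDSC, 715 ± 98.6 for MDSC-NP-Blk and 359 ± 28.7 for CITED. Its log2 fold change was -2.13 in CITED against MDSC (adjusted p = 7.9e-20) and -1.13 in MDSC-NP-Blk against MDSC (adjusted p = 6.1e-13; -0.84 with the length correction). In CITED against MDSC-NP-Blk it stood at the threshold, at -1.0 (adjusted p = 1.9e-10), and was no longer called without CITED replicate 2, 3 or 4 or MDSC-NP-Blk replicate 2 or 3 (-1.0 to -0.92) or with the replicate block (-1.0). That call was also lost with DESeq2, with RLE size factors (another scaling), with the 8 libraries of the comparison alone, and with the length correction (-0.89).

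**Figure D4:**
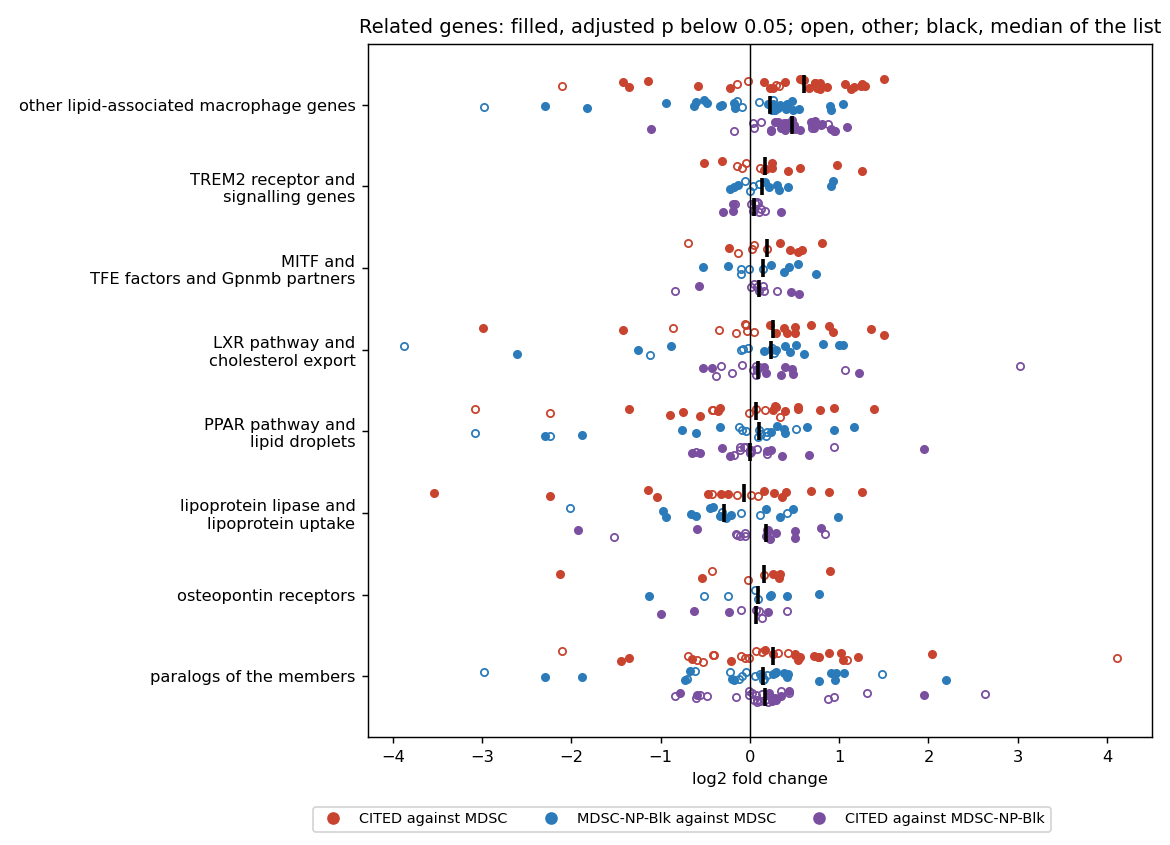
Log2 fold changes of the genes of 8 related lists in the 3 comparisons, 1 point for each gene tested, filled where the adjusted p is below 0.05; black bars mark the median of a list. The points of the other lipid-associated macrophage genes lie mostly to the right of 0, with a median of 0.6 in CITED against MDSC, and those of lipoprotein lipase and lipoprotein uptake spread to both sides.

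Of 33 tested paralogs of the 10 genes, 12 rose and 4 fell in CITED against MDSC, 13 rose and 6 fell in MDSC-NP-Blk against MDSC, and 9 rose and 2 fell in CITED against MDSC-NP-Blk, with medians of 0.26, 0.15 and 0.17. The tetraspanin gene Cd37, a relative of Cd9, went from 3275 ± 110 in MDSC to 7563 ± 366 in CITED (log2 fold change 1.21, adjusted p = 1.5e-20; 0.93 with library totals alone). Trem1, the activating relative of Trem2, went from 2544 ± 159 to 5157 ± 175 (1.02, adjusted p = 2.5e-16), and was just under the threshold without CITED replicate 1 or MDSC replicate 1, at 1.00 when rounded, and at 0.75 with library totals alone. Abca13, a relative of Abca1, fell from 5402 ± 1262 to 1974 ± 274 (-1.45, adjusted p = 2.3e-12; -0.95 with the length correction). At low counts in MDSC-NP-Blk against MDSC, Tspan8 was called higher at 19.2 ± 5.32 against 4.01 ± 1.33 (2.2, adjusted p = 0.0026) and Abca5 at 36.6 ± 8.09 against 17.4 ± 10.7 (1.05, adjusted p = 0.032); the latter was lost without MDSC replicate 2 or 4 or MDSC-NP-Blk replicate 1 or 4 (0.80 to 1.04).

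The genes whose values ran closest to those of Gpnmb over the 12 libraries were found by the root mean square difference of log2 normalized counts, each gene centred on its own mean, among 10555 genes with a mean normalized count of at least 50. The 5 closest were Trim30d (0.101), which encodes a protein of the tripartite motif family, Anpep (0.156), the gene of the membrane peptidase CD13, Slc11a1 (0.163), the gene of the phagosomal metal transporter NRAMP1, Lgals3bp (0.179), the gene of a secreted protein that binds galectin-3, and Arsg (0.182), the gene of the lysosomal arylsulfatase G. As in Gpnmb, each had CITED libraries above all others, with log2 fold changes of 0.8 to 0.89 against MDSC and 0.83 to 1.08 against MDSC-NP-Blk, and a small negative value, -0.19 to -0.03, in MDSC-NP-Blk against MDSC. Slc11a1, for example, was at 2182 ± 24.6 for MDSC, 2087 ± 89.2 for MDSC-NP-Blk and 3793 ± 197 for CITED. These genes were picked for this likeness, so their values are a description; all points share library, depth and the length relation given above. By correlation in place of the difference, 3 of the 5 were named again, and with a limit of 10 in place of 50, all 5.

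None of the other members was among the 5 genes most like Gpnmb. Lgals3 had rank 368 of 10555 (difference 0.371), Plin2 382 (0.373), Trem2 430 (0.38) and Cd9 908 (0.421), whereas Apoe had rank 6295, Abca1 8426, Spp1 9048, Fabp5 9227 and Lpl 9747. The first 4 rose from MDSC to MDSC-NP-Blk as well as to CITED, where Gpnmb was lower in MDSC-NP-Blk than in MDSC.

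**Figure D5:**
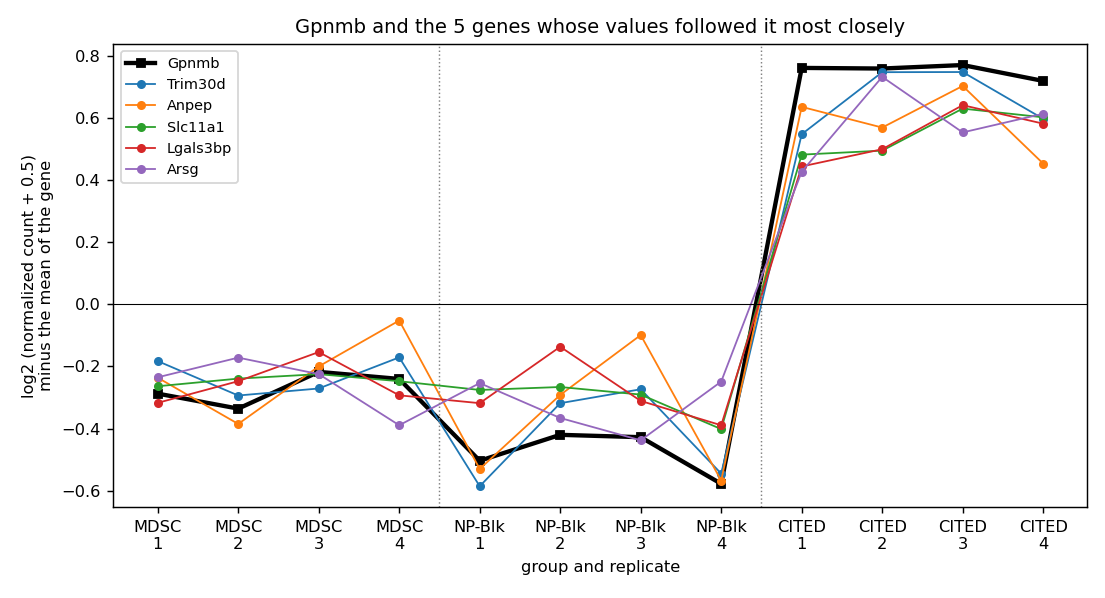
Log2 normalized counts of Gpnmb (black squares) and the 5 genes closest to it, each minus its own mean, in the 12 libraries; lines only join the points of a gene, and replicates have no order. All 6 genes lie below their mean in every MDSC and MDSC-NP-Blk library and above it in every CITED library.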

How the data were processed

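Poly(A)-enriched RNA of 12 libraries, 4 for each group, was sequenced in paired ends. The authors quantified transcripts with Salmon 1.4.0 against GRCm39 (mm39), summed them per gene with tximport in R 4.3.2, and deposited whole-number counts per symbol, neither normalized nor filtered; the annotation release is not given in the sources used here. Groups and replicate numbers were taken from the titles. An entry with an empty symbol held 0 counts and was left out. Libraries of a group differed by more than sampling noise.

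Symbols whose counts summed to 2 or more (17676 of 35303) were tested in R 4.3.3 with edgeR 4.0.16, with TMM factors (0.921 to 1.15) and the quasi-likelihood test, in 1 fit of all 12 libraries with the group as its only term. The common biological coefficient of variation was 9.03%. P-values were adjusted by Benjamini and Hochberg over all genes tested, and a gene was called where that p was under 0.05 and the log2 fold change was 1 or more in either direction. Normalized counts are counts divided by the effective library size and multiplied by its mean over libraries. The p-values measure the spread between biological replicates as labelled. DESeq2 1.42.0, other scalings and filters, robust estimation, a replicate block, a loess correction for transcript length (span 0.5) and leaving out each library were alternatives. On simulated counts of 17298 genes for CITED against MDSC, 200 of them changed, edgeR called 202 genes, which held all 200. The changed genes had higher counts, their changes were all larger than the fold threshold, and no length relation was simulated. The simulation therefore says nothing of calls near the threshold or of the length relation.

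Gene positions, canonical transcripts, shared 31-base words and upstream windows come from GRCm39 with GENCODE release M39.

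The members and lists were chosen with earlier results of these data known. The genes named are the 10 members, from each list and comparison up to 2 called genes in each direction with the lowest p, and the 5 genes most like Gpnmb. The few genes of a list with a count of 5 or fewer were named after their values were seen. So were Mitf, Tfe3, Tfeb, Tfec, Syk, Cd68, C1qa, Mrc1, Csf1r, Mpo, Elane, Retnlg, Csf3r, F13a1 and Ccr2.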

Additional observations from a re-analysis of the deposited data

Results flagged for a closer look

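The normalized counts of the 10 genes in 3 groups made 30 sets of 4 libraries, each checked for a library far from the other 3 by the ratio of its gap to the range of the set (Dixon's ratio, at its 95% critical value). Chance alone flags about 1 set in 20, and 2 of 30 were flagged, both in MDSC replicate 2. Cd9 was highest there, at 10016 normalized counts against 9325 to 9356 in the other MDSC libraries (ratio 0.955). Abca1 was lowest there, at 700 against 1052 to 1115 (ratio 0.847). Without that library, Abca1 in CITED against MDSC moved from a log2 fold change of 0.36 to 0.22 and still passed the test (edgeR, adjusted p = 0.0098), and Abca1 in MDSC-NP-Blk against MDSC moved from 0.82 to 0.68. MDSC replicate 2 also had the lowest length relation of the controls, a Spearman rho of 0.21 against 0.30 to 0.33, and its part in these values was not tested.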

How the results depend on the processing

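For the 9 genes beside Gpnmb, 27 log2 fold changes were each recomputed under 21 settings. Of these 567 values none changed sign, 555 kept their side of the threshold of adjusted p, and 12 no longer passed: Abca1 in CITED against MDSC with library totals alone (0.08), Trem2 in MDSC-NP-Blk against MDSC with library totals alone (0.11) and with the length correction (0.15), and Spp1 in CITED against MDSC-NP-Blk in 9 settings (-0.13 to -0.11). Gpnmb ranged from 0.75 to 1.11 in CITED against MDSC, from -0.47 to -0.15 in MDSC-NP-Blk against MDSC and from 1.21 to 1.26 in CITED against MDSC-NP-Blk.

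Without a fold change threshold, 9, 9 and 8 of the 9 genes passed in the comparisons of CITED with MDSC, of MDSC-NP-Blk with MDSC, and of CITED with MDSC-NP-Blk, in place of 4, 2 and 0, and 7862, 6815 and 3883 of all genes in place of 1765, 838 and 469; the threshold alone makes this difference. With library totals alone, all genes called were 272 higher and 1890 lower in CITED against MDSC, in place of 580 and 1185, and 146 and 1060 in MDSC-NP-Blk against MDSC, in place of 333 and 505; Lpl was then called in the latter (-1.04), Spp1 (-1.08) and Fabp5 (-1.21) in the former, and Plin2 (0.92) was not. With the length correction Fabp5 was called in CITED against MDSC (-1.15) and Abca1 in MDSC-NP-Blk against MDSC (1.12). When each library was left out in turn, 3 to 5 of the 9 genes were called in CITED against MDSC, 2 to 2 in MDSC-NP-Blk against MDSC and 0 to 0 in CITED against MDSC-NP-Blk, and 1631 to 1772, 722 to 892 and 417 to 474 of all genes. The genes that passed at adjusted p were then 9 to 9, 9 to 9 and 7 to 8. Of the other lipid-associated macrophage genes, 10 were called in CITED against MDSC, 7 with the length correction and 5 with library totals alone, and the paralogs called there ran from 3 to 6 over all settings with the fold threshold.

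Whether the replicate numbers pair libraries is not stated. The correlations of same-numbered libraries, as deviations from group means over 9413 genes, were -0.14 to 0.20. These values do not settle whether such libraries share a marrow preparation. A fit with the number as a replicate block called 1621, 766 and 441 of all genes and changed no call of the 9 genes; of the 4 CITED libraries, 2 correlated best with the MDSC library of their own number and 1 with the MDSC-NP-Blk library of it.

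Low totals limit Fabp4, Igf1, Plin4, Lipc, Tspan8 and Abca5, whose group means were 50 normalized counts or fewer. Beside the settings named above, a fit without the filter took away calls of Fabp4, Plin4 and Abca5. Library totals alone took away those of Lipc and Abca5. The 8 libraries of the comparison alone took away those of Abca5 and of Plin4 in CITED against MDSC-NP-Blk. The length correction took away that of Plin4 in MDSC-NP-Blk against MDSC.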
